A study of Mus musculus with 6 samples.

Results

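The genes described here carry out DNA replication, from the loading of the helicase onto origins to the handling of chromatin behind the fork. They were taken as every row of the deposited count table whose gene symbol equalled one of 45 listed symbols. All 45 were found among the 23420 genes of the table, and all 45 passed the filter on low counts that left 13044 genes for testing. RNA was sequenced from mouse embryonic fibroblasts of mixed 129/Sv-C57BL/6 strain that carry the adenoviral oncogene E1A and the oncogene HrasG12V, so both groups are oncogene-transformed. Cells of 3 lines had received either a control guide without a target (sgNTC), which leaves p53 wild-type, or a guide to the p53 gene, sgp53(1), here called sgp53. Each line gave 1 library of each kind. The sgp53 cells of lines 1 and 3 are labelled p53 null, and those of line 2 are labelled functionally inactive. All cells were kept at 37 °C in 5% oxygen and 5% CO2, with a recovery time of 24 h. The labels do not say whether the edited cells were clones or pools, or whether the lines came from separate embryos, so p-values measure only the spread between these libraries. In the column headers lines 2 and 3 share a number that line 1 lacks, and its meaning is not given. The comparison is that of sgp53 with sgNTC cells.

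In G1 the origin recognition complex, Cdc6 and Cdt1 load the Mcm2 to Mcm7 ring onto DNA as an inactive helicase, and kinases then convert it, with Cdc45 and GINS, into a moving fork. At the fork the primase starts each strand, RPA coats single-stranded DNA, and the clamp Pcna, loaded by the RFC complex, holds the polymerases on their template. Most of these genes are transcribed around the start of S phase under E2F factors. E1A is known for binding the RB proteins that hold E2F in check, and p53 acts on the same axis through p21, the product of Cdkn1a.

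The gene targeted by the guide gave the check of the labels. Trp53 stood at 206, 277 and 253 CPM, which are counts scaled to a common library size, in sgNTC lines 1, 2 and 3 and at 71.1, 72.0 and 113 CPM in sgp53 lines 1, 2 and 3. It fell by 1.52 on the log2 scale in sgp53 cells (SE 0.21, adjusted p = 0.0168 by edgeR), a call that was lost without sgp53 line 1 (adjusted p = 0.0679), sgp53 line 2 (0.0507) or sgNTC line 3 (0.0721). Cdkn1a fell from 697 ± 44.1 to 86.3 ± 13.6 CPM (SD, n = 3, edgeR adjusted p = 0.000509). Library totals lay between 27503577 and 35860866 counts. Of 10 fibroblast markers, 9 were tested. Vim, an intermediate filament of mesenchymal cells, lay between 2502 and 3354 CPM. Lum, a matrix proteoglycan, was at 0 in 5 of the 6 libraries. The collagen genes Col1a1 and Col1a2 were called higher in sgp53 cells, and none of the 9 was called lower. Col1a1 stood at 5.18 to 12.6 CPM in sgNTC and 221 to 744 CPM in sgp53 libraries (log2 fold change 5.68). Col1a2 stood at 6.30 to 18.3 CPM in sgNTC and 182 to 787 CPM in sgp53 libraries (5.16). The 10 markers, mostly Vim and the matrix gene Fn1, summed to 5536 to 6607 CPM in sgNTC and 6890 to 9367 CPM in sgp53 libraries. The 5 epithelial markers summed to 259 to 646 CPM in sgNTC and 88.7 to 132 CPM in sgp53 libraries, with the keratin gene Krt18 called lower. Krt18 was not called with the line as a block (edgeR adjusted p = 0.0534), and its call was kept in 6 of 15 alternatives. The 4 endothelial markers summed to 1.96 to 2.65 and 1.64 to 1.82 CPM, the 5 haematopoietic markers to 8.90 to 10.5 and 3.68 to 4.22 CPM with Cd68 called lower, and the 4 neural markers to 329 to 395 and 267 to 402 CPM. The part of the 4 called markers (Col1a1, Col1a2, Krt18 and Cd68) in the results on replication genes was not tested. In bulk RNA, fewer cycling cells and less RNA per cell cannot be told apart.

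Promoter sequences are shown because E2F sites are the shared feature for which these genes are known. RefSeq windows on GRCm38.p6 (mm10), from 250 bases before to 50 bases after a gene start, were held for 37 of the 45 genes. The 8 others were Mcm4, Gmnn, Gins1, Gins2, Gins4, Prim2, Pole and Rfc2. The E2F words TTTCCCGC, TTTGGCGC and TTTCGCGC, the last of which shares bases with a TTTGGCGC match in Mcm6, were searched on both strands with CCAAT. The 250 bases before a start are printed for the genes with the smallest p that had a window, Pcna (chr2:132253181-132253430, minus strand), Rpa1 (chr11:75348384-75348633, minus strand) and Uhrf1 (chr17:56304063-56304312, plus strand, the downstream of 2 annotated starts; the upstream window held 1 CCAAT box and no E2F word). Those of Mcm6 (chr1:128359706-128359955, minus strand) and Cdc6 (chr11:98907901-98908150, plus strand), chosen after their values were seen, are added as genes with the largest negative fold changes. Each is written 5′ to 3′ on the strand of the gene, and capitals mark the matches. The windows of Rpa1, Cdc6 and Uhrf1 precede annotated starts that lie inside the gene intervals given with their values, downstream of the outermost start.
Pcna: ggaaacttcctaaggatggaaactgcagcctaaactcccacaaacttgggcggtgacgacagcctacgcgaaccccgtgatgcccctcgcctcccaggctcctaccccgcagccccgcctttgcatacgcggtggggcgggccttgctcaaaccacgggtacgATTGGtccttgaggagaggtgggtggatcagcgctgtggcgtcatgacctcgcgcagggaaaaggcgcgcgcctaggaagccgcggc
Rpa1: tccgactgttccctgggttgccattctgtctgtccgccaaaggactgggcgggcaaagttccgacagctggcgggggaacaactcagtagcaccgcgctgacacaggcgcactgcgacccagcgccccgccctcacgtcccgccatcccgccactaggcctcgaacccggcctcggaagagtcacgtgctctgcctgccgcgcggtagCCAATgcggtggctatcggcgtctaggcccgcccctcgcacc
Uhrf1: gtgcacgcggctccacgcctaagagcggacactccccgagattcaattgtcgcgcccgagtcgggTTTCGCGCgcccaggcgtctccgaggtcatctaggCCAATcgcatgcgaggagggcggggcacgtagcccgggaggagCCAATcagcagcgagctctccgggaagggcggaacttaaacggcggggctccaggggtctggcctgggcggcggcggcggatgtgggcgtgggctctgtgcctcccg
Mcm6: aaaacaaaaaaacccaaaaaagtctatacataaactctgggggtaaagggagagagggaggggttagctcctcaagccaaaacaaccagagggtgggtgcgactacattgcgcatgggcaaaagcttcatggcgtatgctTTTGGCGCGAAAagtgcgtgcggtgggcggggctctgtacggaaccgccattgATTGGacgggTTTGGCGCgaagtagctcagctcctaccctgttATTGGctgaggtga
Cdc6: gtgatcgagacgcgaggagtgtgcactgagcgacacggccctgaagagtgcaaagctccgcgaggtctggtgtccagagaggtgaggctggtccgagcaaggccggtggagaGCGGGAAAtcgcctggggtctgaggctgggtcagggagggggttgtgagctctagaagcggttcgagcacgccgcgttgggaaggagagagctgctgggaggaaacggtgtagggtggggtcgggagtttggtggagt
The Pcna and Rpa1 windows each held 1 CCAAT box and no E2F word, whereas the Mcm6 window held 3 E2F matches, of which 2 overlap. An E2F word stood in 15 of the 37 member promoters (40.5%), against 402 of the 9665 tested genes with a window (4.16%) and 606 of all 32851 windows (1.84%). CCAAT stood in 24 of 37 (64.9%) against 43.3% of tested genes and 37.4% of windows. The cell cycle homology words TTTGAA and TTCGAA stood in 8 of 37 (21.6%) against 15.8% of tested genes and 19.2% of windows. The p53 half-site consensus stood in 3 of 37 (8.11%; Orc2, Pole2 and Fen1) against 8.13% of tested genes and 8.36% of windows. The log2 fold changes of genes with and without an E2F word had close medians, -0.18 over 15 genes and -0.16 over 22. All 15 with the word had a negative fold change, as did 17 of the 22 without it. These matches are letters in a window and describe no binding.

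Across the 45 genes, levels in sgp53 cells were mostly slightly lower, and few single genes passed the test. Pcna, the sliding clamp, and Rpa1, the large subunit of the single-strand binding complex, were the genes that fell, 2 of 45 (4.44%), against 3.69% of all genes tested that were called lower by edgeR. None of the 45 was called higher by edgeR, where 2.76% of all genes were. DESeq2 and limma-voom, which called 2367 and 698 of all genes in either direction, also called 0 higher. At an unadjusted edgeR p under 0.05 the 1 higher gene was Pold2 (2.22%, against 13.9% of all genes). The share called lower is thus near that of all genes. Fold changes ran from -0.53 for Mcm6 to 0.26 for Pold2 on the log2 scale. Their median was -0.18, against -0.01 over all genes tested, and 39 of the 45 were negative (86.7%), against 51.5% of all genes.

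Less strict rules counted more of the genes. The lowest sgNTC library lay above the highest sgp53 library for 23 of the 45 (51.1%), against 19.0% of all genes tested. Without any 1 library this count lay between 23 and 29, against 22.0% to 26.5% of all genes. The lowest sgp53 library lay above the highest sgNTC library for 2 (4.44%, Mcm10 and Pold2), against 17.8%. At an unadjusted edgeR p under 0.05, 23 of the 45 were lower (51.1%), against 15.1% of all genes. That count was 15 without sgp53 line 1 (10.9% of all genes), 15 without sgNTC line 2 (11.4%), 12 without sgp53 line 3 (12.3%), 14 without both libraries of line 2 (10.9%) and 9 without both of line 3 (9.14%). DESeq2, at an adjusted p under 0.05, called 12 lower (26.7%), against 9.00% of all genes: Cdc6, Mcm3, Mcm4, Mcm6, Pola1, Prim2, Pcna, Rfc3, Rpa1, Chaf1b, Slbp and Uhrf1. When the line was a block in the edgeR fit, 1 of the 45 was lower, Pcna (2.22%), against 1.42% of all genes.

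**Figure D1:**
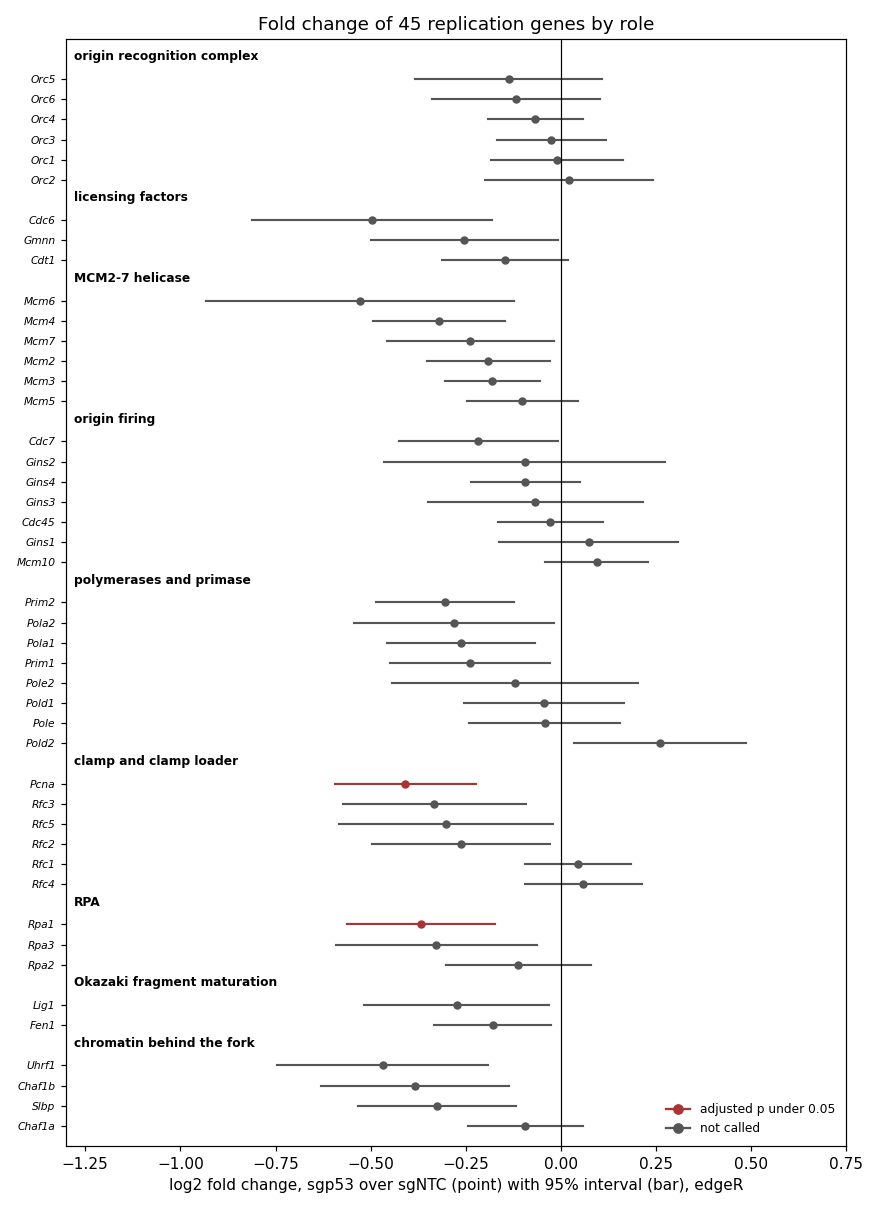
Log2 fold change (sgp53 over sgNTC, x axis) of each of the 45 genes, grouped by role, as fitted by edgeR with its 95% interval. The values run from -0.53 for Mcm6 to 0.26 for Pold2, and 39 of 45 lie below 0.

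The origin recognition complex binds origins and is where licensing begins. None of its 6 subunits passed the test, none had an unadjusted p under 0.05, and their median log2 fold change was -0.05. Orc2, the subunit of highest CPM, stood at 121, 119 and 138 CPM in sgNTC lines 1 to 3 and at 134, 114 and 136 CPM in the sgp53 lines, so the groups overlapped (log2 fold change 0.02, edgeR adjusted p = 0.898). Its exons share 24.0% of their length with Nif3l1. Orc5, with the smallest p of the complex, stood at 35.4, 38.4 and 30.8 CPM in sgNTC and 31.6, 33.8 and 29.7 CPM in sgp53 lines (-0.14, adjusted p = 0.409). Orc1, the ATPase subunit regulated over the cycle, lay within 28.2 to 30.6 CPM in all 6 libraries. Its 95% interval ran from -0.18 to 0.16. Orc4 was the subunit whose groups did not overlap, at 64.6 to 68.4 CPM in sgNTC and 62.7 to 64.2 CPM in sgp53 lines.

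The licensing factors load the helicase, and geminin restrains them. Cdc6 (chr11:98907709-98923942), the loading ATPase, stood at 116, 143 and 134 CPM in sgNTC lines 1, 2 and 3. In sgp53 lines 1, 2 and 3 it stood at 98.9, 103 and 77.0 CPM. Every sgNTC library was above every sgp53 library, and sgp53 line 3 was the lowest. Its log2 fold change was -0.50 (SE 0.13, 95% interval -0.81 to -0.18), which missed the threshold by edgeR (adjusted p = 0.0711) and passed it by DESeq2 (adjusted p = 0.00601). Gmnn, which encodes geminin, the inhibitor of Cdt1, had a log2 fold change of -0.25 (edgeR adjusted p = 0.162), with groups that did not overlap. Cdt1, the loading partner of Cdc6, had -0.15 (adjusted p = 0.215), with overlapping groups.

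The MCM ring is the replicative helicase, and all 6 of its genes had negative fold changes with a median of -0.21, although none was called by edgeR. Mcm4 (chr16:15623897-15637400) stood at 369, 425 and 368 CPM in sgNTC and 299, 318 and 313 CPM in sgp53 lines. All sgNTC libraries were above all sgp53 libraries. The log2 fold change was -0.32 (SE 0.07), next to the threshold in edgeR (adjusted p = 0.0523) and past it in DESeq2 (adjusted p = 0.00151). Mcm6 (chr1:128331575-128359705), the subunit of highest CPM, stood at 454, 732 and 553 CPM in sgNTC and 391, 428 and 386 CPM in sgp53 lines. Its sgNTC libraries were spread most widely, with line 2 far above the others and line 1 close to the sgp53 libraries. The log2 fold change was -0.53 (SE 0.17, edgeR adjusted p = 0.102; DESeq2 adjusted p = 0.0145). Without sgNTC line 1 it passed in edgeR (-0.68, adjusted p = 0.0478). Without sgNTC line 2 it was -0.33 (adjusted p = 0.155), less negative than Cdc6 (-0.43) in the same fit. Mcm3 had -0.18 (edgeR adjusted p = 0.0848) with tight groups, at 448 to 475 CPM in sgNTC and 391 to 418 CPM in sgp53 lines. Mcm2 (-0.19) also did not overlap between groups, whereas Mcm7 (-0.24) and Mcm5 (-0.10, 95% interval -0.25 to 0.04) did.

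**Figure D2:**
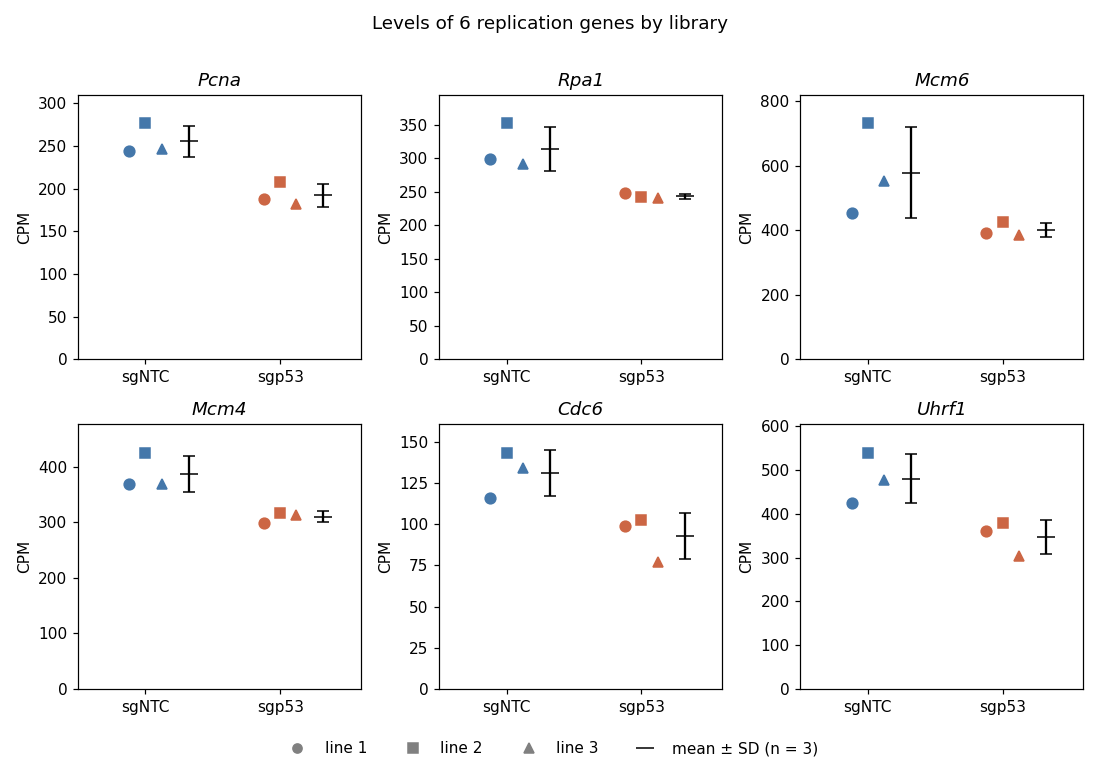
CPM (y axis, starting at 0) of Pcna, Rpa1, Mcm6, Mcm4, Cdc6 and Uhrf1 in each library, with symbols for the 3 lines and the mean ± SD of each group. The panels show genes with the smallest p or the largest negative fold changes, so they do not represent the 45. In all 6 panels every sgNTC library lies above every sgp53 library, and line 2 is the highest sgNTC library. Such a separation held for 23 of the 45 genes (51.1%), against 19.0% of all genes tested.

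The genes that turn the loaded helicase into an active one had values close to 0. Their median was -0.07 over 7 genes, and none was called. Mcm10, which helps activate the helicase, stood at 107, 107 and 105 CPM in sgNTC and 120.2, 109.7 and 110.2 CPM in sgp53 lines. The sgp53 libraries were all higher, by little (log2 fold change 0.09, edgeR adjusted p = 0.313). Cdc7, the kinase that phosphorylates the MCM ring, stood at 65.0, 69.1 and 65.4 CPM in sgNTC and 62.7, 58.2 and 50.8 CPM in sgp53 lines (-0.22, adjusted p = 0.16). The groups did not overlap, and sgp53 line 3 was lowest. Cdc45, a core part of the active helicase, had -0.03. The GINS subunits, which join it, had 0.07 for Gins1, -0.10 for Gins2, -0.07 for Gins3 and -0.09 for Gins4. Gins2 shares 70.7% of its exon length with Gse1 on the other strand, and the strand setting of the counting is not given in the sources used here.

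None of the 8 polymerase and primase genes was called by edgeR, and their median log2 fold change was -0.18. Values were lower in sgp53 lines without overlap for 4 of the 8, against 19.0% of all genes tested. They were higher without overlap for 1, Pold2, against 17.8%. The 4 lower genes were those of the polymerase alpha-primase complex, which begins every new strand: Pola1 -0.26, Pola2 -0.28, Prim1 -0.24 and Prim2 -0.31. Prim2, the large primase subunit, stood at 66.2, 78.8 and 74.2 CPM in sgNTC and 60.2, 58.6 and 58.6 CPM in sgp53 lines. The sgp53 libraries were nearly alike and below all sgNTC libraries (edgeR adjusted p = 0.0623; DESeq2 adjusted p = 0.0125). It passed in edgeR without sgNTC line 1 (adjusted p = 0.0359). Pole, the catalytic subunit of the leading strand polymerase, stood at 146, 173 and 147 CPM in sgNTC and 154, 155 and 142 CPM in sgp53 lines. Its groups overlapped (-0.04, 95% interval -0.24 to 0.16). Pole2, its partner, had -0.12, and Pold1, the catalytic subunit of polymerase delta, had -0.04. Pold2, the second subunit of polymerase delta, stood at 99.1, 94.9 and 98.6 CPM in sgNTC and 111, 133 and 106 CPM in sgp53 lines. Here all sgp53 libraries were higher, and the log2 fold change of 0.26 (95% interval 0.03 to 0.48) was not called (edgeR adjusted p = 0.132).

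Pcna (chr2:132249286-132253180), the clamp, stood at 244, 277 and 247 CPM in sgNTC lines 1, 2 and 3. In sgp53 lines 1, 2 and 3 it stood at 188, 208 and 182 CPM. It was lower in all 3 lines by similar amounts, with within-line log2 differences of -0.38, -0.41 and -0.44. It fell from 256 ± 18.1 to 193 ± 13.4 CPM (SD, n = 3), a log2 fold change of -0.41 (SE 0.08, 95% interval -0.59 to -0.22, edgeR adjusted p = 0.0348). The call was kept without sgp53 line 2 (adjusted p = 0.0493) and lost without sgNTC line 1 (0.051), line 2 (0.0825) or line 3 (0.106), or without sgp53 line 1 (0.118) or line 3 (0.0858). The annotation names 2 pseudogene copies, Pcna-ps1 and Pcna-ps2, and how their reads were counted is not given in the sources used here. The RFC subunits load the clamp. Rfc3 stood at 54.6, 67.2 and 64.6 CPM in sgNTC and 47.6, 53.6 and 46.7 CPM in sgp53 lines. Its groups did not overlap (-0.33, edgeR adjusted p = 0.0918; DESeq2 adjusted p = 0.0379). Rfc5 had -0.30 and Rfc2 -0.26, whereas Rfc1, the large subunit, had 0.04 and Rfc4 had 0.06.

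Rpa1 (chr11:75300259-75348454) stood at 299.6, 352 and 291 CPM in sgNTC lines 1, 2 and 3. In sgp53 lines 1, 2 and 3 it stood at 248, 242 and 241 CPM. The sgp53 libraries were nearly alike, and line 2 was the highest sgNTC library. It fell from 314 ± 33.0 to 244 ± 3.74 CPM (SD, n = 3), a log2 fold change of -0.37 (SE 0.08, 95% interval -0.56 to -0.17, edgeR adjusted p = 0.0492), just inside the threshold. With the line as a block it was not called (edgeR adjusted p = 0.0924). It was also lost without any 1 library, with an adjusted p of 0.0642, 0.0698 and 0.0982 without sgNTC lines 1, 2 and 3 and 0.132, 0.097 and 0.117 without sgp53 lines 1, 2 and 3. Rpa3, the small subunit, stood at 26.5, 28.8 and 31.9 CPM in sgNTC and 22.0, 25.8 and 21.7 CPM in sgp53 lines. Its groups did not overlap (-0.33, edgeR adjusted p = 0.114). Rpa2, the subunit phosphorylated under replication stress, had -0.11 with overlapping groups.

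Okazaki fragments are trimmed by the flap nuclease Fen1 and sealed by the ligase Lig1. Lig1 stood at 258, 316 and 274 CPM in sgNTC and 243, 249 and 209 CPM in sgp53 lines. Its groups did not overlap (-0.27, edgeR adjusted p = 0.137). Fen1 stood at 148, 137 and 134 CPM in sgNTC and 129, 124 and 117 CPM in sgp53 lines (-0.18, edgeR adjusted p = 0.129). These groups did not overlap either, but an antisense gene, Gm10143, covers 78.8% of the exon length of Fen1.

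The genes acting on chromatin behind the fork had a median log2 fold change of -0.35 over 4 genes, none of them called by edgeR. Uhrf1 (chr17:56303337-56323486), which recruits maintenance DNA methylation to newly copied DNA, stood at 426, 539.8 and 477 CPM in sgNTC and 360.3, 378 and 305 CPM in sgp53 lines. Every sgNTC library was above every sgp53 library. The log2 fold change was -0.47 (SE 0.12, edgeR adjusted p = 0.0622; DESeq2 adjusted p = 0.00214). Slbp, which binds the stem-loop of histone mRNAs, had -0.33 (edgeR adjusted p = 0.0709). The CAF-1 subunits, which deposit histones on new DNA, had -0.38 for Chaf1b (edgeR adjusted p = 0.0739) and -0.09 for Chaf1a. Groups did not overlap for Slbp and Chaf1b and overlapped for Chaf1a, which shares 33.6% of its exon length with Ubxn6.

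The 3 lines were not alike. The sgp53 library was the lower of its line for 31, 37 and 38 of the 45 genes in lines 1, 2 and 3. These shares were 68.9%, 82.2% and 84.4%, against 51.8%, 49.9% and 51.1% of all genes tested. Median within-line log2 differences were -0.09, -0.21 and -0.14, against -0.01, 0.00 and -0.01 over all genes tested. In all 3 lines 28 genes were lower (62.2%, against 27.0% of all genes tested) and 4 were higher (8.89%, against 25.2%). The other 13 were mixed. Within groups, sgNTC line 2 was the highest sgNTC library for 34 genes and sgp53 line 3 the lowest sgp53 library for 30. The summed CPM of the 45 genes was 6739, 7735 and 6952 in sgNTC and 6141, 6304 and 5821 in sgp53 lines, so the groups did not overlap in the sum. Cdc6 had within-line log2 differences of -0.23, -0.48 and -0.80, and Mcm6 of -0.21, -0.78 and -0.52. The line of largest difference thus varied between these genes.

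**Figure D3:**
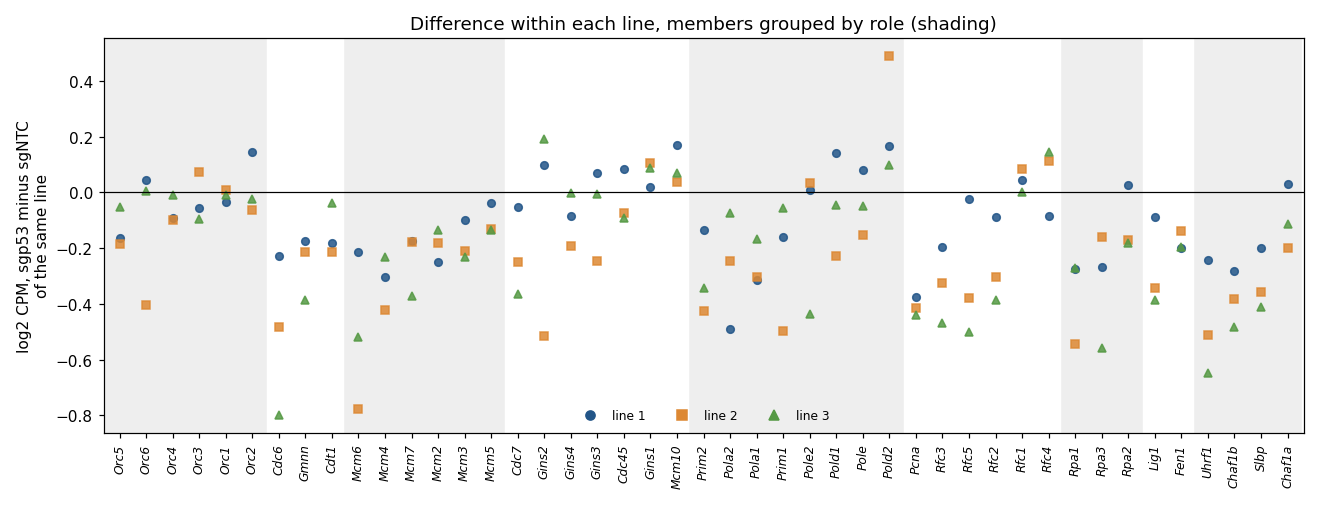
Log2 difference in CPM between the sgp53 and sgNTC library of each line (sgp53 minus sgNTC) for the 45 genes. The medians of lines 1, 2 and 3 are -0.09, -0.21 and -0.14, and 28 genes are below 0 in all 3 lines.

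Levels of different genes were compared per length, as CPM per kb of exon. The 6 MCM genes, whose products form a ring with 1 copy of each, lay close together in sgNTC cells, from 152 ± 4.61 CPM per kb for Mcm3 to 103 ± 5.65 for Mcm5 (SD, n = 3), a ratio of 1.47. Between these came Mcm7, Mcm6, Mcm2 and Mcm4. The range of Mcm6 (104 to 167) took in the means of all the other MCM genes except Mcm5. In sgp53 cells the order ran from Mcm3 (134 ± 4.66) to Mcm4 (86.4 ± 2.67), with Mcm6 at 91.8 ± 5.19 CPM per kb. The MCM genes thus lay within a narrow range in both groups, with a ratio of 1.55 in sgp53 cells. This was not particular to them. The ratio was smaller for RPA (1.41 in sgNTC and 1.37 in sgp53 cells) and CAF-1 (1.29 and 1.06). It was larger for RFC (2.14 and 2.27) and polymerase alpha-primase (2.39 and 2.43). Origin recognition genes spread more, from 58.8 CPM per kb for Orc6 to 9.77 for Orc1 in sgNTC and from 54.2 to 9.69 in sgp53 cells, in the same order of subunits. GINS genes ran from 42.0 for Gins4 to 7.07 for Gins3 CPM per kb in sgNTC cells. The CAF-1 pair stood at 46.9 for Chaf1b and 36.4 for Chaf1a in sgNTC and at 36.0 and 34.1 CPM per kb in sgp53 cells, where their ranges overlapped.

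**Figure D4:**
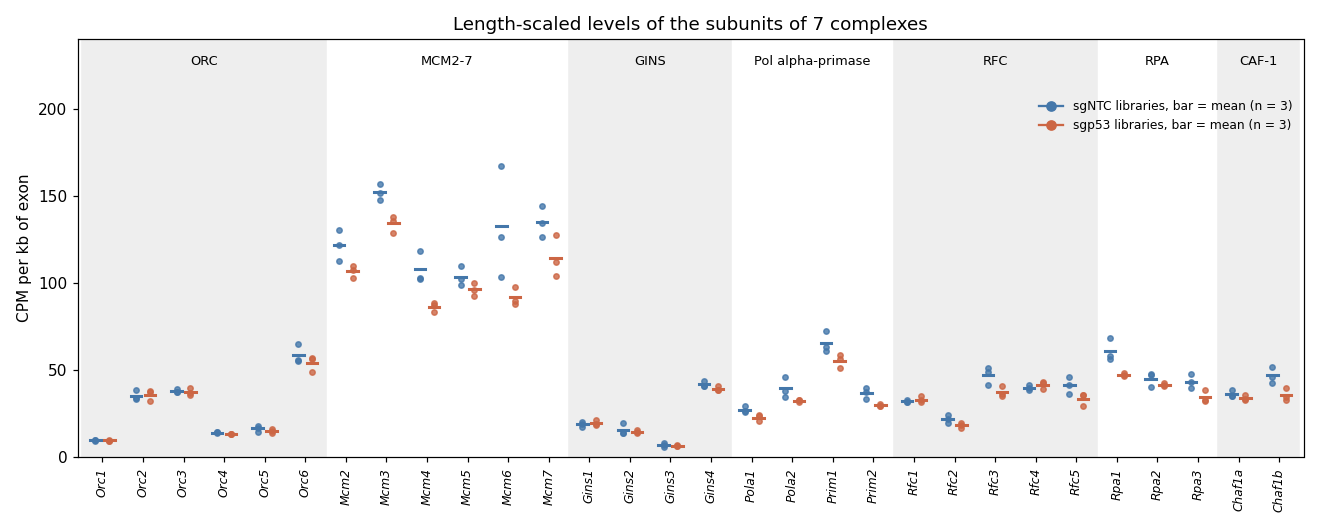
Level per length (CPM per kb of exon) of the subunits of replication complexes in sgNTC and sgp53 cells. Points are libraries and bars are means: the means of MCM genes span 103 to 152 in sgNTC cells, whereas those of origin recognition genes span 9.77 to 58.8.

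A list of 40 other replication genes gave the surrounding pathway. Of these, 3 were called lower by edgeR (7.50%, against 3.69% of all genes tested) and 0 higher (against 2.76%). DESeq2, which called 2367 of all genes in either direction, also called 0 higher. At an unadjusted edgeR p under 0.05, 7 were lower (17.5%, against 15.1% of all genes) and 0 higher (against 13.9%). The groups did not overlap for 10 lower genes (25.0%, against 19.0%). They also did not overlap for 3 higher genes, Dbf4, Chtf8 and Rnaseh2b (7.50%, against 17.8%). The median log2 fold change of the 40 was -0.02, and 22 were negative (55.0%, against 51.5%). Dna2, a nuclease and helicase that processes long flaps and stalled forks, stood at 64.8, 80.6 and 65.3 CPM in sgNTC and 42.9, 45.5 and 33.0 CPM in sgp53 lines. It fell by 0.79 on the log2 scale (SE 0.15, edgeR adjusted p = 0.0325), a larger change than any fitted for the 45 genes. Donson, a factor of helicase assembly, stood at 49.1, 53.2 and 51.6 CPM in sgNTC and 40.9, 40.7 and 37.3 CPM in sgp53 lines. It fell by 0.37 (edgeR adjusted p = 0.0309) but was not called with the line as a block (adjusted p = 0.0822). Cdk2, the kinase that drives S phase entry, stood at 125, 141 and 132 CPM in sgNTC and 109, 108 and 99.2 CPM in sgp53 lines. It fell by 0.34 (edgeR adjusted p = 0.0427) and was likewise not called with the block (0.0846). For all 3 genes the groups did not overlap. The 3 calls were kept without sgNTC line 1 and lost without any other single library, with an adjusted p of 0.0556 to 0.0977 for Dna2, 0.0666 to 0.12 for Donson and 0.0769 to 0.136 for Cdk2. In the roles with no call, the smallest p belonged to Dtl, the substrate receptor that directs Cdt1 to degradation (-0.43, edgeR adjusted p = 0.108), Tipin of the fork protection complex (-0.27), Atad5, which unloads Pcna (-0.27), the histone chaperone gene Asf1b (-0.16) and Pole4 of polymerase epsilon (-0.16). Dtl was called by DESeq2 (adjusted p = 0.0317) and, in edgeR, without sgNTC line 1 (-0.56, adjusted p = 0.0387), and was -0.27 without sgNTC line 2 (adjusted p = 0.19). Top2a, the topoisomerase of dividing cells, chosen after its values were seen, lay at 729.9 to 884 CPM in sgNTC and 833 to 891 CPM in sgp53 lines (0.04, 95% interval -0.16 to 0.25).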

How the data were processed

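RNA sequencing of 6 libraries, 3 sgNTC and 3 sgp53, measured expression. The deposited values are labelled as counts per gene symbol and were used here as raw counts. Their totals differ between libraries. Per the submitters' processing notes, mm10, STAR, CASAVA 1.8 and DESeq2 were used, with no role given. How reads were counted (program, gene models, strand) is not given in the sources used here. No library pair of a group agreed within sampling noise (chi-square per degree of freedom 21.8 to 58).

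The edgeR 4.0.16 quasi-likelihood test was run on the counts in R 4.3.3 (TMM, filterByExpr), with Benjamini-Hochberg adjustment over all 13044 genes, called at an adjusted p under 0.05. Alternatives were RLE and upper quartile scaling, no filter, DESeq2 1.42.0, limma-voom (limma 3.58.1), a replicate block, and leaving out each library or line. On simulated counts of 13044 genes the edgeR test recovered 36% of 1.5-fold and 70% of 2-fold changes, 50 genes each, with 12 false among 152 calls. The changed genes were drawn at random from all 13044, and no line effect was simulated. An exact permutation test of 3 against 3 cannot go below 0.1. CPM use normalized library sizes, within-line differences use log2 CPM with a prior count of 2, and exon lengths are from GENCODE. Overlapping genes were found in the same annotation, and coordinates are from RefSeq.

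The line numbers pair the libraries because both libraries of a number come from the same cell line, per the labels. Deviations from the group means correlated at 0.0893, 0.00177 and -0.0272 in lines 1, 2 and 3. These values lay within the range of pairs from different lines, -0.1 to 0.128.

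The members and lists were chosen with earlier results of these data known. Genes given library by library were those called with or without the block and, in each role, the gene of highest mean CPM and the uncalled gene of smallest p; of the other replication genes, those called and, in roles with none, the gene of smallest p. Pold2 was added after its values were seen.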

Additional observations from a re-analysis of the deposited data

How the results depend on the processing

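Over all genes, 841 were called, against 2367 by DESeq2, 311 with the replicate block and 19 to 700 when a library or line was left out. The 2 replication genes called lower became 1 with RLE scaling, 1 without the filter and 1 by limma-voom. The count was 1 with the replicate block (2.22%, against 1.42% of all genes) and 12 by DESeq2 (26.7%, against 9.00%). It was 0 to 2 with a library or line left out. Without sgNTC line 1 the 2 called were Mcm6 and Prim2 in place of Pcna and Rpa1. The 3 other replication genes called lower became 5 by DESeq2 (12.5%, against 9.00% of all genes) and 1 with the block (2.50%, against 1.42%). Their count was 0 to 4 with a library or line left out. The count of 23 lower at an unadjusted p under 0.05 was 9 to 19 with a library or line left out. In those fits 9.14% to 15.3% of all genes were lower by this rule. The median log2 fold change of the 45 genes stayed between -0.21 and -0.14 in the 15 alternatives. Of the 45 genes, 33 to 40 were negative, against 48.7% to 51.5% of all genes. The counts of genes lower at an unadjusted p and of negative genes were added after seeing the data. The sign turned, with a library or line left out, for Orc2 (-0.041 to 0.10) and Pole (-0.10 to 0.041), neither of which was called. Of 390 values for 26 named genes, 319 kept their direction and side of the threshold, 53 lost the call, 11 gained it and 7 changed sign. The cause of these differences was not tested. In the edgeR fit of all 6 libraries, every change in the 45 genes was under 1.5-fold. That was the smallest fold simulated, of which 36% were recovered. The blocked fit has 2 residual degrees of freedom against 4.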
